A study of Sus scrofa with 13 samples.

Results

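The longissimus dorsi, the long muscle of the back, was compared between piglets at birth (day 0) and at day 30 in Guizhou mini-pigs, a small Chinese breed, by sequencing of total RNA from which ribosomal RNA had been removed. Both libraries came from untreated animals of the same breed as far as the labels say, and neither sex nor the number of animals in a library is stated. There was 1 library at each age, so no difference had a replicate check and no test between ages was made. A further library of the same muscle at day 240 and 8 other organs at 240 days (adipose tissue, heart, kidney, liver, lung, ovary, spleen and testis) are given beside the results as a description. The genes were chosen by a rule: every gene with an Ensembl identifier and an RPKM (reads per length of gene, scaled to the library's read total) of at least 1 at day 0 or day 30. The rule found 7581 of 21607 genes, of which 2193 reached an RPKM of 1 at day 0 alone and 560 at day 30 alone. Such genes entered only through the age where they were high, so the filter favoured a difference in that direction. A symbol was paired with 5011 of them, and 2570 had none.

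Skeletal muscle at birth holds fibres that still change their contractile proteins and their fuel while the tissue grows. Fast fibres draw on glycogen and glycolysis, slow fibres on mitochondria and fat, and myosin, troponin and calcium-handling isoforms mark each kind. Building new muscle protein calls on ribosomes, chaperones that fold actin, tubulin and myosin, and the proteasome that clears failed protein, while satellite cells supply new nuclei and fibroblasts lay down collagen.

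The total read number behind RPKM was 35748717 at day 0 and 24445391 at day 30, and 7074234 and 3539364 reads respectively fell on Ensembl genes (19.8% and 14.5% of the total). The RPKM of these genes summed to 114421 at day 0, 76605 at day 30 and 121890 at day 240. The median ratio of day 30 to day 0 over the 4828 genes with RPKM of at least 1 at both ages was 0.574, and the ratio of the sums was 0.670. Values at day 30 as deposited thus carried a shift of -0.80 or -0.58 on the log2 scale, and each difference was set beside the same difference after dividing the day 30 values by either ratio. A gene is written here as higher or lower at day 30 only where it was at least 2-fold apart on log2(RPKM + 0.1) in the same direction under all 3 scalings. Of the others the values are given.

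As deposited, 498 genes were at least 2-fold higher (6.57%) and 3703 at least 2-fold lower (48.8%) at day 30. After scaling to the same sum there were 930 higher (12.3%) and 2152 lower (28.4%), and after scaling to the same median ratio 1183 higher (15.6%) and 1691 lower (22.3%). Under all 3 scalings 498 genes were higher (6.57%) and 1691 lower (22.3%), and the shares of each gene group below are read against these values. The median log2 difference over the 7581 genes was -0.97 as deposited and -0.21 after scaling to the same median ratio. At the edges of these limits, CERS5 was inside the RPKM minimum (1.0002 at day 0) and PRRC2B outside it (0.9998 at day 30). CASQ1 was just inside the limit for higher genes with a log2 difference of 1.001 as deposited, and TP63 just outside that for lower genes with -0.998 after scaling to the same median ratio.

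**Figure D1:**
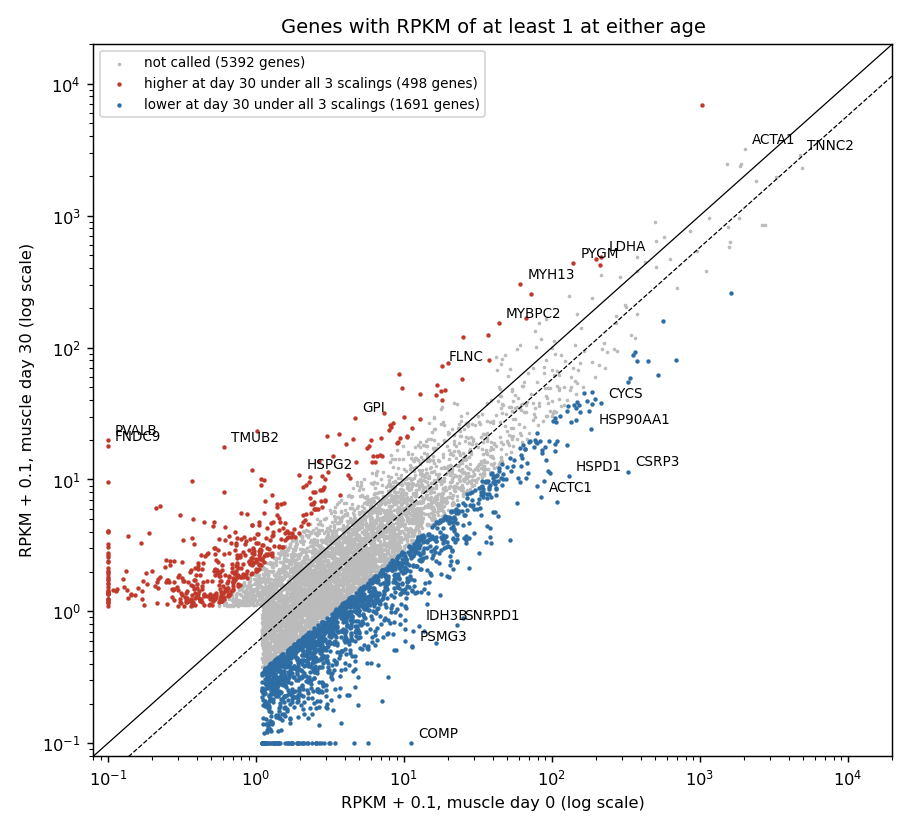
RPKM + 0.1 at day 0 (x axis) and day 30 (y axis), both on log scales, of the 7581 genes, with the 498 genes higher at day 30 in red, the 1691 lower in blue and the rest in grey. The solid line marks equal RPKM and the dashed line the median ratio of 0.574, around which the grey genes lie.

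The differences moved with gene length, as recovered from the values. When the genes were split into 10 groups of near-equal size by length, the shortest group (54 to 585 nt) had a median log2 difference as deposited of -1.22 and the longest (4837 to 23619 nt) of -0.59. Lower genes made up 35.9% of the shortest group and 6.20% of the longest, while higher genes made up 13.3% and 5.94%. From day 0 to day 240, the medians of the same groups were -0.90 and -0.59. For some gene lists the median after subtracting the median of genes of like length is therefore given as well (called length-centred). Among the lists given without it, length-centring took the median after scaling to the same median ratio from 0.16 to -0.001 for slow fibre genes. For the citrate cycle it went from -0.06 to 0.19, and for mitochondrial DNA genes from -0.29 to -0.03. The part of RNA quality or library protocol in the trend with length was not tested.

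**Figure D2:**
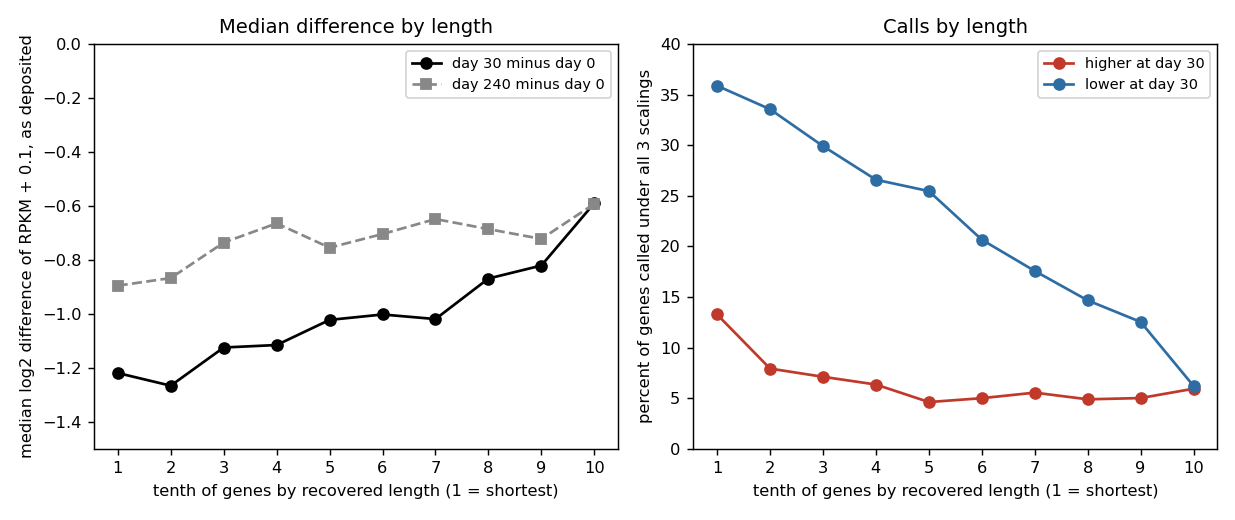
Median log2 difference of RPKM + 0.1 as deposited (left) and percent of genes called higher or lower under all 3 scalings (right) in 10 groups of the 7581 genes by length, from the shortest to the longest. The day 30 median climbs from -1.22 to -0.59, with -0.90 and -0.59 at day 240 (dashed), and the share of lower genes drops from 35.9% to 6.20%.

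Both libraries carried the markers of skeletal muscle. Of 18 listed markers 9 were matched and all of these passed the RPKM limit, with a summed RPKM of 9023 at day 0, 8647 at day 30 and 17027 at day 240. TNNC2, the calcium-binding troponin of fast fibres, had 4717 RPKM at day 0 and 2877 at day 30, against 8.11 at most in the 8 other organs. ACTA1, the actin of skeletal muscle filaments, had 2012 and 3183 RPKM. Neither was called.

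The largest level at day 30 belonged to ENSSSCG00000018006, a gene of 309 nt with no symbol, at 6920 RPKM (1030 at day 0, 5165 at day 240, at most 2.61 in another organ). It made up 9.03% of the RPKM sum at day 30 and 0.900% at day 0. Whether it shares reads with near-identical genes was not tested, so its level is uncertain. It was higher at day 30, and no other gene among the 10 highest at either age was called. At day 0 the highest was COX1, the mitochondrially encoded subunit of cytochrome oxidase, with 4917 RPKM (2302 at day 30). Next came TNNC2, and then TPM2, a tropomyosin that lies along the actin filament, with 3250 RPKM (1964 at day 30).

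Of 10 measured fast fibre genes, 3 were higher and 0 lower, and the list median was 0.10 as deposited and 0.90 after scaling to the same median ratio (length-centred 1.29). Their summed RPKM as deposited was 10701 at day 0, 9076 at day 30 and 21902 at day 240. PVALB, parvalbumin, a cytosolic calcium buffer that speeds the relaxation of fast fibres, had 0 reads at day 0 and 288 reads at day 30 (19.7 RPKM), with 7.77 RPKM at day 240. Against the floor of 3 reads at day 0 it was at least 140-fold higher as deposited. MYBPC2, the fast form of myosin-binding protein C on the thick filament, was 43.6 RPKM at day 0, 153 at day 30 and 153 at day 240, a log2 difference of 1.81 as deposited and 2.61 after scaling to the same median ratio. CASQ1, calsequestrin, which stores calcium in the sarcoplasmic reticulum, had 210, 420 and 642 RPKM at the 3 ages and was higher at day 30. ATP2A1, the calcium pump of fast fibres, had 213, 352 and 351 RPKM and was not called. MYL1 and MYL11, light chains of fast myosin, went from 2402 to 1844 and from 1154 to 962 RPKM and were not called either.

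Among 7 slow fibre genes, 0 were higher and 2 lower (median 0.16 after scaling to the same median ratio, -0.64 as deposited). CSRP3, muscle LIM protein at the Z-disc, which is used in slow fibres and in the heart, had 327 RPKM at day 0, 11.4 at day 30 and 94.8 at day 240. It was lower by a log2 difference of -4.83 as deposited and -4.03 by median ratio, with 263 RPKM in the heart. ANKRD2, a stretch-responsive ankyrin repeat protein of slow fibres, was also lower, with 20.9, 4.22 and 3.04 RPKM. The slow troponins were not called: TNNC1 had 318 RPKM at day 0 and 203 at day 30, TNNT1 had 630 and 472, and TNNI1 had 45.1 and 42.8. The slow myosin light chain MYL3 had 235 and 92.2.

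The myosin heavy chain genes of the developmental and fast cluster are near-identical copies that lie side by side, so reads can be split among them and each symbol is uncertain. The gene paired with MYH8, the perinatal chain, had 1888 RPKM at day 0, 2442 at day 30 and 3695 at day 240. The gene paired with MYH3, the embryonic chain, had 37.3, 80.7 and 96.3 RPKM and was higher at day 30. MYH13, a fast chain known from eye muscle, had 61.1, 302 and 385 RPKM and was higher as well (log2 difference 2.30 as deposited). None of these 3 genes was lower at day 30 or day 240 than at birth, although embryonic and perinatal chains are known as forms of early life. MYH6, the alpha chain of the heart, which is near-identical to the slow chain and was the 1 measured gene of the heart marker list, was 379 RPKM at day 0 and 378 at day 30, with 4521 in the heart.

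Of 6 developmental isoforms, 1 (MYH3) was higher and 1 lower. The lower gene was ACTC1, the cardiac actin that early skeletal muscle also uses, with 84.9 RPKM at day 0, 7.23 at day 30 and 0.939 at day 240, a log2 difference of -3.53 as deposited. ACTC1 and ACTA1 are near-identical in their coding parts. TNNT2, the cardiac troponin T found in early muscle, had 4.03 and 4.33 RPKM, and MYBPH, a relative of myosin-binding protein C, had 99.6 and 99.7. Of the 2 matched genes below the limit, MYL4 had 11 reads at day 0 and 0 at day 30, and MYMK had 0 and 6.

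Of 21 genes for proteins that hold the sarcomere together, 5 were higher and 0 lower (median 1.10 by median ratio, 0.30 as deposited, length-centred 0.96). FLNC, filamin C, which ties the Z-disc to the membrane, had 17.9 RPKM at day 0, 72.0 at day 30 and 16.0 at day 240. MYOM2, the M-band protein of fast fibres, had 19.9, 76.6 and 57.8 RPKM. NRAP, which takes part in myofibril assembly, went from 16.6 to 52.3, KLHL40, a stabiliser of thin filament proteins, from 5.97 to 13.4, and ANK1, whose muscle form links the sarcoplasmic reticulum to the sarcomere, from 9.87 to 29.8. FHL1, a LIM protein of the sarcomere, had 362 RPKM at day 0, 117 at day 30 and 379 at day 240 and was not called, since its log2 difference was -1.62 as deposited and -0.82 by median ratio. NEB, nebulin, the ruler of the thin filament, had 504 and 640 RPKM.

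Calcium release and energy buffering gave few calls. Of 11 genes of excitation-contraction coupling, 1 was higher and 0 lower (median 0.15 as deposited, 0.95 by median ratio). It was CAMK2A, a calcium-dependent kinase, with 1.48 RPKM at day 0 and 4.60 at day 30. CACNA1S, the voltage sensor of the T-tubule, had 17.9 and 35.6 RPKM, just short of 2-fold as deposited. Of 3 measured genes of phosphate transfer, AMPD1, the muscle AMP deaminase, was higher, with 12.8 RPKM at day 0 and 44.4 at day 30. STIM1, the calcium sensor of the reticulum, lay outside the lists and was named after its values were seen, with 2.85 RPKM at day 0, 6.91 at day 30 and 2.56 at day 240, and it was higher.

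Glycolysis and glycogen breakdown held the largest number of higher genes under all 3 scalings among the 23 gene lists. By share, lists with fewer measured genes lay above its 28%, among them fast fibre (30%) and cell cycle (50%). Of 25 measured members 7 were higher (LDHA, PKM, PYGM, PHKA1, PGAM2, PFKFB3 and GPI) and 2 lower (PGAM1 and GBE1), and the median log2 difference was 0.60 as deposited and 1.40 by median ratio (length-centred 1.42). PYGM, muscle glycogen phosphorylase, had 139 RPKM at day 0, 435 at day 30 and 689 at day 240. PHKA1, the subunit of the kinase that switches it on, had 5.92, 19.9 and 31.2 RPKM. GPI, which turns glucose 6-phosphate into fructose 6-phosphate, had 4.55, 29.4 and 22.4 RPKM, and its ratio of day 30 to day 0 was 6.45 as deposited (95% counting interval 5.65 to 7.38).

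PKM, pyruvate kinase, had 199, 472 and 721 RPKM, and LDHA, the lactate dehydrogenase of fast muscle, had 214, 490 and 1301. The summed RPKM of the matched list was 3090 at day 0, 5634 at day 30 and 9707 at day 240. PFKFB3, which makes the activator of phosphofructokinase, had 0.841 RPKM at day 0, 4.43 at day 30 and 0.430 at day 240, so the level at day 30 was the highest of the 3. The isoforms of phosphoglycerate mutase went apart: PGAM2, the muscle form, had 72.0 RPKM at day 0 and 257 at day 30, whereas PGAM1, the form of most other tissues, had 10.5 and 1.59. GBE1, the glycogen branching enzyme, was lower, with 5.79 and 0.639 RPKM. GPD1, the cytosolic glycerol phosphate dehydrogenase that is also on the adipocyte list, was higher, with 17.6 and 46.4 RPKM.

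**Figure D3:**
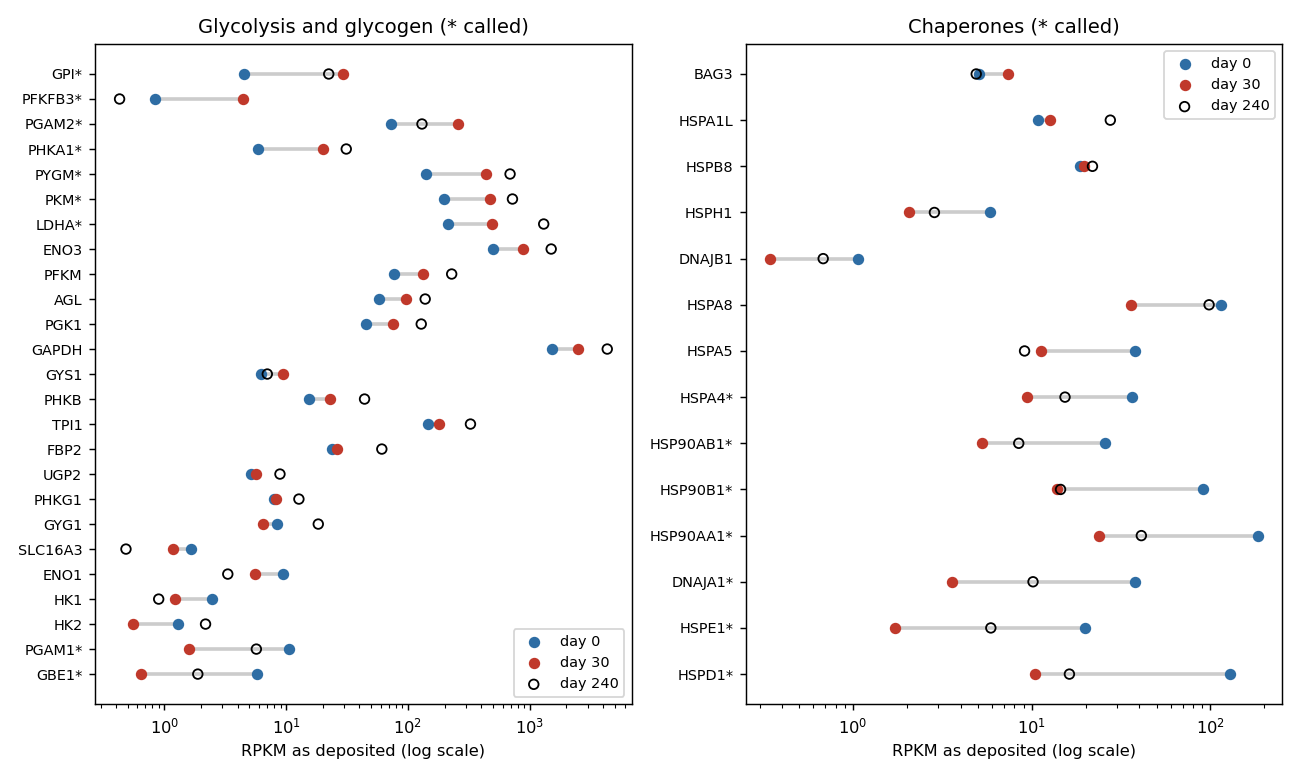
RPKM as deposited (log scale) of the 25 glycolysis and glycogen genes (left) and the 14 heat shock genes (right) at day 0, day 30 and day 240, ordered by the log2 difference after scaling to the same median ratio, with an asterisk at genes called higher or lower. Most glycolysis genes stand further right at day 30 than at day 0, from GPI (4.55 to 29.4) downwards, and 11 of the 14 chaperones further left, with HSPD1 going from 130 to 10.4.

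Of 24 measured genes of fatty acid uptake and oxidation, 0 were higher and 6 lower, a share of lower genes near that of all genes, while 2 were at least 2-fold higher by median ratio alone. The median was -1.503 as deposited and -0.70 by median ratio (length-centred -0.38). HADHA and HADHB, the subunits of the trifunctional enzyme of beta oxidation, had 114 and 16.6 RPKM at day 0 and 30.0 and 4.17 at day 30. SLC25A20, which carries acylcarnitines into mitochondria, had 8.35 and 2.30. PLIN5, which coats fat droplets beside mitochondria, had 7.27, 1.26 and 0.698 RPKM at the 3 ages. ANGPTL4, a fasting-induced inhibitor of lipoprotein lipase, had 12.8, 2.57 and 0.199. UCP2, an uncoupling protein of many tissues, was the other lower gene, with 1.301 and 0.272. PDK4, the kinase that shuts pyruvate dehydrogenase when fat is burnt, had 277 RPKM at day 0, 94.2 at day 30 and 7.27 at day 240, but with a log2 difference of -0.76 by median ratio it was not called. UCP3, an uncoupling protein of muscle mitochondria, had 2.63 and 4.76 RPKM and was not called.

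Of 42 nuclear genes of oxidative phosphorylation, 10 were lower and 0 higher, a share of lower genes near that of all genes. The median was -1.44 as deposited and -0.66 by median ratio, against -0.21 over all genes, and -0.29 when length-centred. The list holds short genes, with a median of 884 nt against 1852 nt over all genes. CYCS, cytochrome c, had 215 RPKM at day 0, 37.7 at day 30 and 89.9 at day 240. NDUFA9 and NDUFB7, subunits of complex I, had 105 and 61.0 RPKM at day 0 and 18.6 and 9.43 at day 30. COX8A, of complex IV, had 92 reads at day 0 and 2 at day 30, and the ratio of day 0 to day 30 was 31.5 with a counting interval of 8.46 to 264.

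The 13 genes encoded by mitochondrial DNA gave 0 calls in either direction, and their summed RPKM was 19894 at day 0, 8600 at day 30 and 17262 at day 240. In the citrate cycle 2 of 18 genes were lower and 0 higher. IDH3B, a subunit of isocitrate dehydrogenase, had 12.5 RPKM at day 0, 0.678 at day 30 and 6.84 at day 240, while IDH3G, its partner subunit, had 8.11 and 4.80 and was not called. DLD, the E3 subunit of the pyruvate and oxoglutarate dehydrogenases, had 65.4 and 16.9. Of 7 regulators of mitochondria 1 was higher and 2 lower. PPARGC1A, the coactivator known for driving mitochondrial gene expression, was the higher gene, with 5.55 RPKM at day 0, 17.1 at day 30 and 3.76 at day 240. The lower genes were PPARA, a nuclear receptor for fatty acids, with 3.43 and 0.679 RPKM, and OPA1, which fuses the inner mitochondrial membrane, with 11.8 and 2.70.

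**Figure D4:**
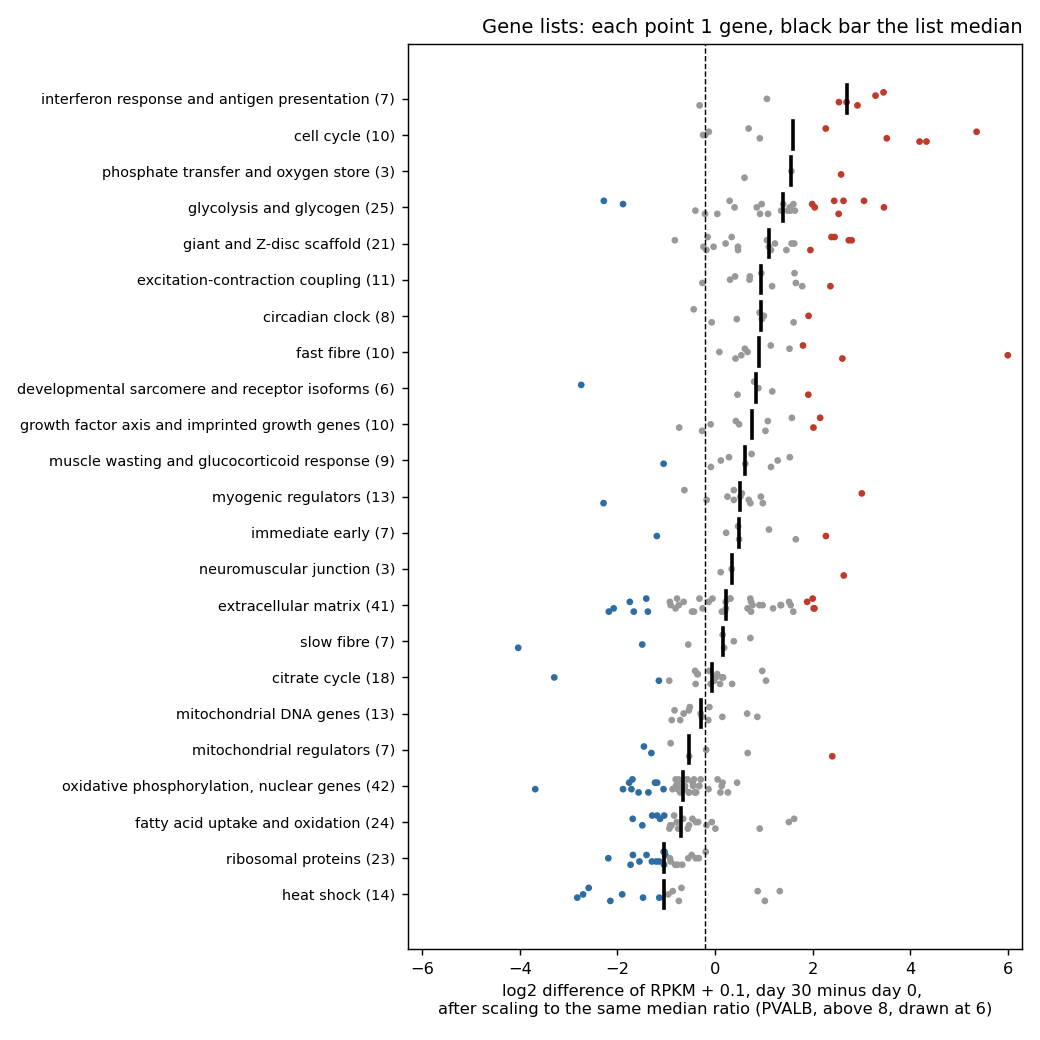
Log2 difference of RPKM + 0.1 from day 0 to day 30 after scaling to the same median ratio for each measured gene of the 23 lists (points; number of genes in brackets), with genes called higher in red and lower in blue. Black bars mark list medians, from -1.05 for heat shock to 2.70 for interferon response, and the dashed line the median of -0.21 over all 7581 genes. Low genes, as in the interferon and cell cycle lists, could enter only through the age where they are high.

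Chaperones and ribosomal proteins had the lowest list medians, both as deposited and by median ratio. Of 14 heat shock genes, 7 were lower and 0 higher, with a median of -1.85 as deposited and -1.05 by median ratio (length-centred -0.89). HSPD1 and HSPE1, which together form the folding chamber of mitochondria, had 130 and 19.99 RPKM at day 0 and 10.4 and 1.71 at day 30. HSP90AA1 and HSP90AB1, the cytosolic chaperones that help to fold myosin and kinases, had 185 and 25.8 RPKM at day 0 and 23.9 and 5.29 at day 30. HSP90B1, their relative in the endoplasmic reticulum, had 90.7 and 13.9. DNAJA1, a partner of HSP70, had 38.01 and 3.58, and HSPA4, which recharges HSP70, had 36.5 and 9.46. HSPB8 and BAG3, partners in clearing damaged filament proteins, had 18.6 and 5.05 RPKM at day 0 and 19.6 and 7.35 at day 30, and were not called.

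Of 23 measured ribosomal protein genes 13 were lower and 0 higher, with a median of -1.84 as deposited and -1.04 by median ratio. Their median length was 690 nt, and the length-centred median was -0.53. RPLP2, of the ribosomal stalk, had 565 RPKM at day 0, 158 at day 30 and 159 at day 240, and RPS18, of the small subunit, had 59.3, 10.2 and 19.0. Ribosomal protein genes have many processed copies in the genome with which reads may be shared, and 25 of the 79 listed could be matched.

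Of 47 listed genes of the cell division cycle 33 were matched and 10 passed the RPKM limit, of which 5 were higher and 0 lower. These genes entered at low RPKM, and a gene below the limit at day 0 could enter only through a high value at day 30, so the count over those that passed is a description only. MKI67, the Ki-67 protein of dividing cells, had 10 reads at day 0 (0.0288 RPKM), 340 at day 30 (1.43) and 0.202 RPKM at day 240, a ratio of day 30 to day 0 of 49.7 (counting interval 26.7 to 105). CENPF, a kinetochore protein, had 10 and 263 reads, a ratio of 38.5 (20.6 to 81.1). TOP2A, which untangles chromosomes, had 32 and 228 reads. CCNB2, a cyclin of mitosis, had 0 reads at day 0 and 67 at day 30, at least 32.7-fold higher as deposited against the floor of 3 reads. RRM1, the large subunit of ribonucleotide reductase, had 2.56 and 1.27 RPKM and CDK4 1.05 and 0.497, neither called. Of the 23 matched genes below the limit, 15 had a larger RPKM at day 30 as deposited and 7 a smaller one. The counting interval of the ratio as deposited lay above 1 for 7 and below 1 for 3, without allowance for the median ratio of 0.574. CCNE1, a cyclin of the start of DNA replication, had 30 reads at day 0 and 2 at day 30, a ratio of day 0 to day 30 of 10.3 (2.60 to 88.6). The others with an interval below 1 were MCM2 (27 and 7 reads) and MCM4 (39 and 14), parts of the helicase that opens DNA for copying. Their intervals of day 30 to day 0 (0.139 to 0.892 and 0.263 to 0.988) held 0.574. Their log2 differences by median ratio were -0.38 and -0.10. In bulk tissue, more cells of a type and more RNA per cell cannot be told apart.

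Low levels also marked the interferon list, where 7 of 25 matched genes passed the limit and 5 were higher with 0 lower. Here too a gene below the limit at day 0 could enter only through day 30, so this count is a description only. Of the 18 matched genes below the limit, 11 had a larger RPKM at day 30, 3 a smaller one and 4 had 0 reads at both ages. The counting interval of the ratio as deposited lay above 1 for 7 of them and below 1 for 1. The latter was SLA-DMB, whose interval (0.134 to 0.733) held the median ratio of 0.574. OAS2, which senses double-stranded RNA, had 44 reads at day 0 and 204 at day 30, a ratio of 6.78 (4.88 to 9.62). MX1, an antiviral GTPase, had 40 and 121 reads, RSAD2 (viperin) 8 and 54 and IFI44L 16 and 49. SLA-DQB1, a class II antigen-presenting chain of the pig, had 1.39 RPKM at day 0, 6.402 at day 30 and 3.04 at day 240. TAP1, PSMB8, PSMB9 and IRF7 had 0 reads at both ages.

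**Figure D5:**
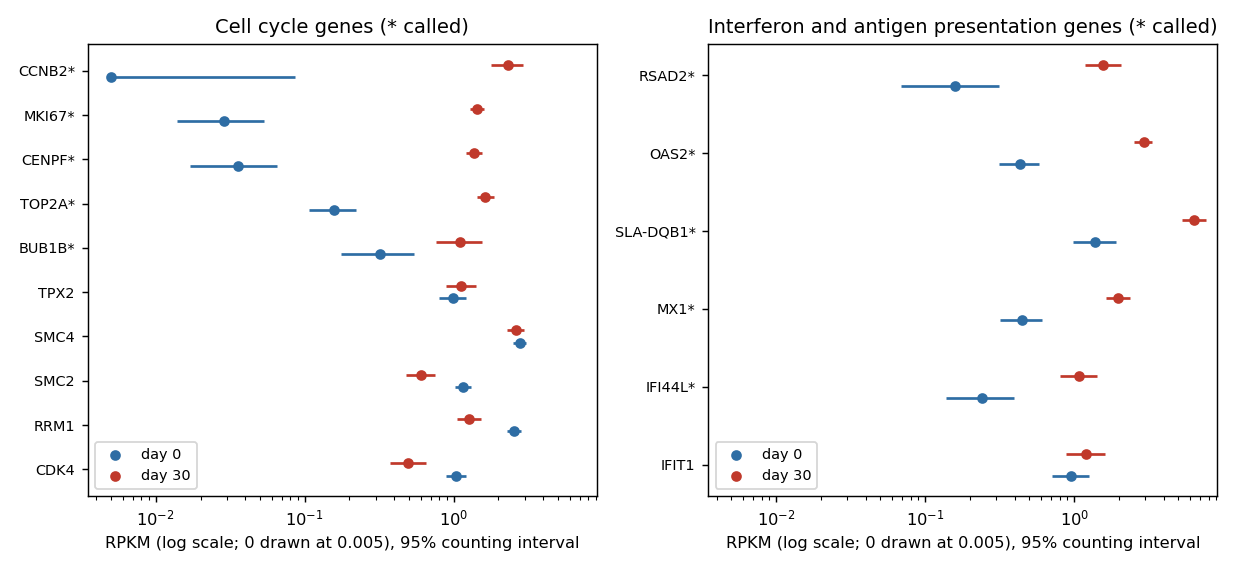
RPKM (log scale, with 0 drawn at 0.005) of the 10 cell cycle genes (left) and the interferon and antigen presentation genes with RPKM under 5 at day 0 (right), at day 0 in blue and day 30 in red, with 95% Poisson intervals of the reads that cover counting error only. Asterisks mark the 5 called genes of each panel, such as MKI67 at 0.0288 and 1.43. They were called by the difference between these same libraries, so the gap between their intervals is no further support.

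Of 13 measured regulators of the myogenic program 1 was higher and 1 lower (median -0.23 as deposited, 0.52 by median ratio). CDH15, M-cadherin of satellite cells, had 14 reads at day 0 and 67 at day 30, a ratio of 6.999 (3.90 to 13.5), and was higher. MYF5, the first myogenic factor to appear in muscle precursors, had 38 and 2 reads, so the ratio of day 0 to day 30 was 12.99 (3.36 to 111), and was lower. MYOD1 had 0.870 and 1.01 RPKM and MSTN, myostatin, the brake on muscle growth, 1.42 and 1.38. MEF2C, which acts with the myogenic factors, had 53.98 and 20.03 RPKM and was not called. At the nerve contact, MUSK, the receptor kinase that gathers acetylcholine receptors, had 0.447 RPKM at day 0, 1.90 at day 30 and 0.167 at day 240 and was the 1 higher gene of 3, having passed the limit through day 30 alone. Of 6 matched genes of the nerve contact below the limit, 2 had a larger RPKM at day 30 as deposited and 4 a smaller one. COLQ, which anchors acetylcholinesterase, had 33 reads at day 0 and 1 at day 30, a ratio of day 0 to day 30 of 22.6 (3.78 to 918). CHRNE, the receptor subunit of mature junctions, had 15 and 0 reads, CHRNA1, the alpha subunit, 47 and 16, and AGRN, agrin, the nerve signal that acts on MUSK, 32 and 123. By median ratio the log2 difference of CHRNA1 was -0.18.

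The matrix list had calls in both directions, as had all genes together. Of 41 measured genes 4 were higher (9.76%) and 6 lower (14.6%), against 6.57% and 22.3% over all genes. The list median was -0.57 as deposited and 0.22 by median ratio (16 were at least 2-fold lower as deposited). The higher genes were COL3A1, fibrillar collagen III, with 24.6 RPKM at day 0, 58.1 at day 30 and 9.22 at day 240, COL4A2 of basement membranes (6.26, 13.5 and 0.841), NID1, nidogen, which joins laminin to collagen IV (2.84, 6.79 and 1.06), and COL5A1 (1.07, 2.63 and 0.126). HSPG2, perlecan, another basement membrane protein, was among the 12 largest rises, with 1.86, 10.8 and 1.33 RPKM. The lower genes were COL12A1 (14.9 and 1.84), THBS1 (22.3 and 3.78), VCAN (5.20 and 1.11), FMOD (4.68 and 0.593), BGN (2.01 and 0.325) and THBS2 (1.56 and 0.302), which code for collagen XII, thrombospondins and proteoglycans. COL1A2, of collagen I, had 51.2 RPKM at day 0, 21.8 at day 30 and 3.61 at day 240 and was not called.

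Most measured markers of cartilage, bone and tendon were lower beside these matrix genes. The summed RPKM over 11 matched markers was 24.3 at day 0, 2.92 at day 30 and 1.54 at day 240, with 3 of 4 measured markers lower. The other, THBS4, was not called, and its log2 difference by median ratio lay above 0. Of the 7 matched markers below the limit, 0 had a larger RPKM at day 30, 4 a smaller one and 3 had 0 reads at both ages. COMP, the cartilage oligomeric matrix protein that tendon also makes, had 974 reads at day 0 (11.1 RPKM) and 0 at day 30, at least 222-fold lower as deposited and 127-fold by median ratio against the floor of 3 reads. TNMD, tenomodulin of tendon, had 102 and 3 reads, a ratio of day 0 to day 30 of 23.3 (7.73 to 115), and COL11A1 had 6.89 and 0.701 RPKM. The defining cartilage genes COL2A1 and ACAN had 35 and 14 reads at day 0 and 0 at day 30. The part of tendon or cartilage in the lower matrix genes was not tested.

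Markers of other cell types had smaller summed RPKM than those of skeletal muscle at both ages. Of 6 fibroblast genes 2 were higher (COL3A1 and PI16) and 0 lower, with summed RPKM of 117 and 106. As deposited, 2 others, LUM and COL1A2, were at least 2-fold lower (log2 differences of -1.43 and -1.23). By median ratio 4 of the 6 lay above 0 and 2 below. Of 6 endothelial genes 1 was higher (EGFL7) and 0 lower, with sums of 19.8 and 17.7, and of 5 smooth muscle and pericyte genes neither direction had a call (19.9 and 18.0). Of 3 macrophage and neutrophil genes 2 were lower, TYROBP (35 and 2 reads) and FCER1G (2.69 and 0.444 RPKM), with sums of 6.57 and 2.28. Of the 8 macrophage and neutrophil markers below the limit 4 had a larger RPKM at day 30, among them CD68, with 1 read at day 0 and 9 at day 30 (ratio 13.2, 1.82 to 577), and C1QA, with 3 and 14 (6.82, 1.90 to 37.04). HBB, beta globin, the 1 measured erythroid gene, had 19.6 and 7.27 RPKM. Adipocyte markers summed to 24.2 at day 0 and 51.6 at day 30, of which GPD1 made up 46.4 at day 30, and SCD, a desaturase of fat synthesis, was lower (1.06 and 0.205) while PLIN1 and CIDEC had 0 reads at day 30. PTPRC of lymphocytes (0.693 and 1.37) and TP63 of the keratinocyte list (5.60 and 1.58) were each the 1 measured gene of their list and were not called.

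The remaining lists held few calls. Of 10 growth factor genes 2 were higher, both of which passed the limit through day 30 alone. They were INSR, the insulin receptor (0.967 and 2.67 RPKM), and IGF2R, which clears insulin-like growth factor 2 (0.436 and 1.19). GRB10, an inhibitor of both insulin and growth factor receptors, had 4.03 and 1.91 and IGF1 5.78 and 6.85. Of the 7 matched genes below the limit, 3 had a larger RPKM at day 30, 2 a smaller one and 2 had 0 reads at both ages. Of 9 genes of muscle wasting 1 was lower, CDKN1A, an inhibitor of cell division (5.11 and 1.38), and the ubiquitin ligases TRIM63 (91.4 and 80.6) and FBXO32 (11.7 and 6.301) were not called. RORA, a nuclear receptor of the clock, was the 1 higher gene of 8 clock genes (2.72 and 6.05). Of 7 immediate early genes ATF3, a stress-induced factor, was higher (1.44 and 4.20) and CCN2, a matrix-inducing growth factor, lower (3.97 and 0.964). NAAA, a lysosomal amidase, had 1.36 and 0.616 RPKM and was not called, and HDAC4, a histone deacetylase, stayed below the limit with 0.456 and 0.519.

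Among named genes with RPKM of at least 10, the 12 largest rises included FNDC9 and TMUB2. FNDC9, a protein with a fibronectin domain, had 0 reads at day 0 and 304 at day 30 (17.8 RPKM), at least 148-fold higher as deposited, and 0 RPKM at day 240 and in all 8 organs. TMUB2, a membrane protein with a ubiquitin-like domain, had 10 reads at day 0, 232 at day 30 and 0.224 RPKM at day 240, a ratio of 33.9 (18.1 to 71.7), with 5.57 RPKM at most in another organ. ASB2, a ubiquitin ligase subunit that targets filamins, had 3.97, 18.4 and 28.4 RPKM, and CARNS1, which makes carnosine, the pH buffer of fast muscle, had 2.71, 10.6 and 9.05.

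The 12 largest falls held, beside COMP, CSRP3, IDH3B, HSPD1, HSPE1 and ACTC1, several genes of RNA and protein handling. SNRPD1 and SNRPF, which form the ring of the spliceosome's small ribonucleoproteins, had 22.8 and 52.1 RPKM at day 0 and 0.690 and 3.35 at day 30. PSMG3, which helps to assemble proteasomes, had 11.3 RPKM at day 0 and 0.443 at day 30, from 149 and 4 reads. ODC1, the enzyme that opens polyamine synthesis, had 11.4 and 0.606. PHB2, prohibitin of the inner mitochondrial membrane, had 27.7 and 2.04, and TUBA1B, an alpha tubulin with near-identical copies, 32.2 and 2.67.

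In the day 240 muscle, which took no part in choosing either group, the 498 higher genes had a median of 0.954 RPKM, against 0.593 at day 0 and 2.24 at day 30. The 1691 lower genes had a median of 1.40 RPKM at day 240, against 3.40 at day 0 and 0.608 at day 30. Of the higher genes 48.2% reached an RPKM of 1 at day 240, and of the lower genes 59.7%, against 69.7% of all 7581. Among the 8 other organs, the heart held the highest level for 10.8% of the higher genes, 5.20% of the lower and 6.83% of all, and the ovary for 27.9%, 52.3% and 46.9%. Lower genes had a median length of 1350 nt and higher genes of 1440 nt, both under the 1852 nt of all genes.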

How the data were processed

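Total RNA of longissimus dorsi at day 0 and day 30 was analysed, with 11 other libraries as a description. The authors mapped reads with TopHat 1.3.2, assembled transcripts with Cufflinks, counted reads with htseq-count (stated for lncRNAs) and deposited RPKM values for 32420 features. The genome build of these libraries and the strand setting are not given in the sources used here, and libraries were made with the SMART or dUTP protocol, without naming which. Total reads were recovered from the lengths of mitochondrial genes, then lengths and reads of the features with values above 0. The smallest length that gives whole reads was used, so the distance from whole numbers (at most 1.1e-09) does not test the recovery. The recovery and the calls were tested on simulated data. Gene symbols came from a reference table (4947) or the identifier columns of the supplement (64). Differences were taken on log2(RPKM + 0.1), which understates changes of low genes. Intervals are exact at 95% (Poisson for reads, Clopper-Pearson for ratios of RPKM as deposited) and cover counting error only. The floor is 3 reads. Named genes were the members of 23 gene lists and 12 marker lists on which a list turns or with RPKM of at least 5 and the largest differences (up to 6 a list), the 12 largest rises and falls with RPKM of at least 10, the 10 highest genes of each library, and UCP3, FHL1, ANK1, HDAC4, NAAA and GRB10. The genes and lists were chosen with earlier results of these data known. Alternatives were other scalings, pseudocounts, filters, limits and length-centring. Python 3.11.15, pandas 2.3.3 and scipy 1.17.1 were used. No sequences are shown. Further items under these rules are not reported here.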

Additional observations from a re-analysis of the deposited data

Results flagged for a closer look

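Outside the Ensembl genes, the lncRNA TCONS_00512109 had 3023 RPKM at day 30, from 43152 reads, far above the 0.210 RPKM that 3 reads would give there. It stands out as a signal in features that the comparison of genes does not use. It had 6997 RPKM at day 0, 6038 at day 240 and 6380 in the heart.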

How the results depend on the processing

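No paired analysis was possible because there was 1 library at each age, and no age had a replicate to leave out. The counts of genes depended on scaling and filters. As deposited, 498 genes were at least 2-fold higher and 3703 lower. The counts were 930 and 2152 with the same RPKM sum, 1183 and 1691 with the same median ratio, 271 and 2311 with a pseudocount of 1, 110 and 1486 among genes with RPKM of at least 5, and 186 and 1157 at a 4-fold limit. Without a filter 1465 were higher. Alternatives added after seeing the data gave 1480 and 1110 when centred by length, 967 and 2075 with the same sum without mitochondrial genes and the top gene, and 819 and 2467 with the same sum of reads. Under all 3 scalings, 498 higher and 1691 lower genes became 271 and 957 with a pseudocount of 1, 110 and 630 at RPKM of at least 5, 1465 and 2764 without a filter, and 186 and 435 at 4-fold. A pseudocount of 0.01, a length of at least 200 nt and at least 20 reads kept every count within 1.5-fold. Of the 23 list medians, 17 lay above that of all genes, and 13 to 17 did under the alternatives. The other scalings moved values by at most 0.80 on the log2 scale, and a pseudocount cannot turn the sign of a gene's difference. A gene or list median past 2-fold as deposited therefore could not change sign under them. Length-centring after scaling to the same median ratio turned the sign of 14 of 309 such genes of the lists or named sets. Below 2-fold, 7 list medians turned from negative as deposited to positive by median ratio (slow fibre -0.64 to 0.16, myogenic -0.23 to 0.52, neuromuscular -0.46 to 0.34, matrix -0.57 to 0.22, growth factor -0.02 to 0.76, wasting -0.18 to 0.62 and immediate early -0.26 to 0.49). Of the 7581 genes, 80 had under 20 reads over both libraries.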

Other observations

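Families of the protein and RNA machinery that the lists did not hold were noticed after their values were seen, and are given as values only. Over 7 such families, with the ASB family left out, 58 of 145 measured genes were lower at day 30 and 0 higher. Over all genes 22.3% were lower, but the families were picked by their values, so the pooled count is a description only. Of 8 genes of the CCT chaperonin, which folds actin and tubulin, 7 were lower, and the family's median log2 difference was -1.35 by median ratio and -1.10 when length-centred. CCT2, for example, had 40.01 RPKM at day 0, 10.2 at day 30 and 10.7 at day 240. Of 14 aminoacyl-tRNA synthetases, which load amino acids onto tRNA, 9 were lower (median -1.25, length-centred -1.02), and NARS1, for asparagine, had 79.7, 8.84 and 18.7 RPKM. KARS1, for lysine, had 12.9 and 11.01 RPKM and was not called.

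Of 6 proteins of the spliceosomal small ribonucleoproteins 4 were lower (median -2.61, length-centred -2.16), and of 19 hnRNP and SR splicing factors 8 (median -0.86, length-centred -0.61), among them SRSF3 with 14.5 and 1.28 RPKM. Of 24 proteasome genes 9 were lower (median -0.63, length-centred -0.35), and of 40 mitochondrial ribosomal protein genes 18 (median -0.91, length-centred -0.55). Of 34 genes of translation initiation factors and their regulators, such as EIF4EBP1, EIF2AK1 and EIF2AK3, 3 were lower (median -0.34, length-centred -0.06). These were EIF4A1, EIF5B and EIF2S2, a share of 8.82% that lay under the 22.3% of all genes. Of 7 genes of the ASB family of ubiquitin ligase subunits, 2 were higher, ASB2 and ASB1.

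Among genes without a symbol, 230 were higher and 734 lower at day 30. Beside ENSSSCG00000018006, ENSSSCG00000007017 had the highest level at day 30 of the higher genes, with 66.8 RPKM at day 0 and 166 at day 30. Of the lower genes, ENSSSCG00000006558 had the highest level at day 0, with 1621 RPKM at day 0 and 258 at day 30.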
